A study of Mus musculus with 2 samples.

Results

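The let-7 family hairpins are described here in the hindbrain of mouse embryos at embryonic day 13.5. The 10 hairpins, chosen by family name, are Mirlet7a-1, Mirlet7a-2, Mirlet7b, Mirlet7c-1, Mirlet7c-2, Mirlet7d, Mirlet7f-2, Mirlet7g, Mirlet7i and Mir98, out of 1973 microRNA gene rows. The study sequenced short RNA from hindbrain of healthy B6NCrl embryos, with both sexes pooled, as 2 libraries of 1 group that the labels number as biological replicates 1 and 2. No genotype or treatment differs between them, and they carry 1 donor identifier and separate biosample identifiers. The labels do not say whether the embryos of these libraries were of different litters, and part of their spread may be technical.

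MicroRNAs of the let-7 family are cut from hairpin precursors, and the arm at the 5′ side of the hairpin (5p) is the one usually loaded into Argonaute. Bases 2 to 8 of the mature microRNA, the seed, select the messenger RNAs that it represses, among them Lin28a, Hmga2 and Trim71. The family accumulates as progenitors differentiate, and the RNA-binding protein LIN28 holds it back in early embryonic cells by binding the loop of the precursor.

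The mature 5p sequences are shown because both the family's identity and its counting turn on them. The 10 hairpins give 8 different 5p sequences of 22 nt, each written 5′ to 3′ with the seed in capitals, from RefSeq on GRCm38.p6.
let-7a-5p (Mirlet7a-1 and Mirlet7a-2): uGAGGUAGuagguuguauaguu
let-7b-5p (Mirlet7b): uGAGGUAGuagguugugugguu
let-7c-5p (Mirlet7c-1 and Mirlet7c-2): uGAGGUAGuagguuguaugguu
let-7d-5p (Mirlet7d): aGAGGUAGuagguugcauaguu
let-7f-5p (Mirlet7f-2): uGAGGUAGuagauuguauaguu
let-7g-5p (Mirlet7g): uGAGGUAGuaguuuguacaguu
let-7i-5p (Mirlet7i): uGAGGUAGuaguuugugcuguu
miR-98-5p (Mir98): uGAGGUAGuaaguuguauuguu

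All 8 sequences share the seed GAGGUAG and differ outside it. Relative to let-7a-5p, with positions counted from 1 at the 5′ end, let-7c-5p has A19G, let-7f-5p has G12A and let-7b-5p has A17G and A19G. The changes are U1A and U16C in let-7d-5p, G12U and U18C in let-7g-5p, and G11A and A19U in miR-98-5p. The furthest from let-7a-5p is let-7i-5p, with G12U, A17G, U18C and A19U. Pairs of the 8 sequences differed at 1 to 6 positions, and the closest pairs, let-7a with let-7c, let-7a with let-7f and let-7b with let-7c, at 1.

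Some of these sequences are made by more than 1 hairpin. The 5p arms of Mirlet7g, Mirlet7i, Mirlet7b, Mirlet7d and Mir98 occurred in no other annotated mouse hairpin. The 5p arms of the other 5 hairpins each occurred in 1 other: the let-7a arm in both Mirlet7a hairpins, the let-7c arm in both Mirlet7c hairpins, and the let-7f arm of Mirlet7f-2 also in Mirlet7f-1. For Mirlet7a-1 and Mirlet7c-2 the opposite arm (3p) was shared as well, since both hairpins hold the same 3p sequence, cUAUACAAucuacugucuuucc, with its own bases 2 to 8 in capitals. Reads that map to several places are in no gene row of the deposited counts, so a read equal to a shared arm could be counted for neither hairpin.

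The unit of level is CPM, which divides a hairpin's counts by those of all gene rows in its library and multiplies by 1000000. Counts were not divided by hairpin length, because the reads were taken to come from mature arms, which are of nearly equal length. This need not hold for hairpins with a shared arm, since reads equal to that arm could be missing from their counts. Counts per gene do not show which part of a hairpin the reads came from. The gene rows held 3006571 counts in replicate 1 and 4508244 in replicate 2. Reads that map to several places numbered 2080061 and 3270252 in replicates 1 and 2, or 33.9% and 34.5% of all reads. All 10 hairpins had at least 10 counts in both libraries, a level that 18.0% of gene rows reached. The tissue label was checked against microRNAs fixed as markers. The Hox cluster microRNAs, known from hindbrain and spinal cord, summed to 109426 and 132913 CPM in replicates 1 and 2, with 3 of 5 detected. Nearly all of that sum was Mir10a, at 75366.9 and 92738.5 CPM, and Mir10b, at 34041 and 40138 CPM. Mir196b had 17.6 and 34.4 CPM. Mir196a-2 had 2 and 7 counts and Mir196a-1 had 0 and 1. The brain list summed to 7923 and 8057 CPM with 4 of 8 measured genes detected. Most of that sum was Mir137, at 6132 and 6281 CPM. Reads that map to several places are missing from these rows too, and sequence sharing is not reported for the marker hairpins. Low counts of a marker hairpin therefore need not mean a low level of its mature microRNA. Mir124a-1, Mir124a-2, Mir124a-3 and Mir9-2 did not reach 10 counts in both libraries. They had 6, 7, 6 and 9 counts in replicate 1 and 23, 21, 2 and 15 in replicate 2.

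Together the 10 hairpins held 75239 and 89900 CPM in replicates 1 and 2, a mean of 82569 ± 10367 CPM or 8.26% ± 1.04 of the counted reads (SD, n = 2). The exact Poisson 95% intervals ran from 74929 to 75550 CPM in replicate 1 and from 89624 to 90177 CPM in replicate 2. The libraries thus lay further apart than counting error, which is the only error these intervals cover. The median level of the 10 hairpins was 2167 CPM, against 166 CPM over all 356 detected genes, and 6 of the 10 were among the 100 most abundant genes.

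Among counted reads, Mirlet7g and Mirlet7i carried most of the family. The family's 226211 and 405292 counts in replicates 1 and 2 leave out every read that maps to several places. Mirlet7g stood at 37386 and 45581 CPM in replicates 1 and 2, a mean of 41484 ± 5795 CPM (SD, n = 2), and stood at rank 5 and rank 4 of all gene rows. Mirlet7i had 26336 and 29635 CPM, a mean of 27985 ± 2333 CPM, and stood at rank 8 in both libraries. Mirlet7g was above Mirlet7i in each library, by 1.42-fold and 1.54-fold, and the ranges of the pair did not overlap.

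These hairpins made up 84.7% of the family's counts in replicate 1 and 83.7% in replicate 2. The share of Mirlet7g was 49.7% (exact Clopper-Pearson 95% interval 49.5 to 49.9) in replicate 1 and 50.7% (50.5 to 50.9) in replicate 2. The share of Mirlet7i was 35.0% (34.8 to 35.2) and 33.0% (32.8 to 33.1). The division of the family between them was thus close in both libraries, although the shares differed by more than counting error. By mean level the gene next above Mirlet7g was Mir335, at 46449 and 43285 CPM, and the next below was Mir10b, at 34041 and 40138 CPM.

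Mirlet7b, Mirlet7d and Mir98 formed a middle tier. Mirlet7b, which in mouse neural stem cells is known to restrain proliferation, stood at 3488 and 4811 CPM in replicates 1 and 2. Mirlet7d had 3141 and 4335 CPM. Mir98, a member of the family under another name, had 2934 and 3341 CPM.

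The order Mirlet7b, Mirlet7d, Mir98 was the same in both libraries. The range of Mirlet7b over the libraries overlapped that of Mirlet7d, and the range of Mirlet7d overlapped that of Mir98, so the ranges over libraries did not separate neighbours. Within a library, Mirlet7b over Mirlet7d was 1.11 in both, and Mirlet7d over Mir98 was 1.07 and 1.30 in replicates 1 and 2. The counting intervals of these neighbours did not overlap in either library. The tier as a whole lay below Mirlet7i, which stood 7.55-fold and 6.16-fold above Mirlet7b in replicates 1 and 2.

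The 5 hairpins whose 5p arm is shared were the lowest. Mirlet7f-2 stood at 1166 and 1228 CPM in replicates 1 and 2, the smallest relative spread of the family with an SD of 3.70% of the mean. Mirlet7c-1 had 265 and 344 CPM, and Mirlet7c-2 had 230 and 290 CPM. Their ranges overlapped.

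Mirlet7a-2 stood at 153 and 183 CPM in replicates 1 and 2, from 461 and 825 counts. Mirlet7a-1 had 140 and 153 CPM, from 421 and 691 counts. The exact Poisson 95% intervals of this pair overlapped in replicate 1, at 140 to 168 CPM for Mirlet7a-2 and 127 to 154 CPM for Mirlet7a-1, so the order of the lowest pair was not resolved there.

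**Figure D1:**
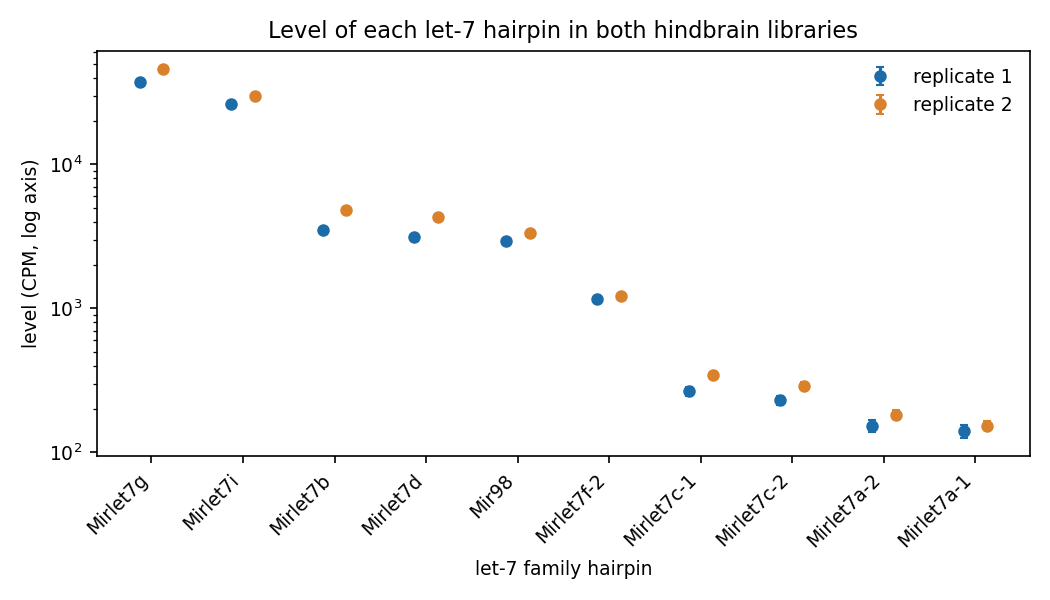
Level of each let-7 hairpin in CPM on a log axis, with replicate 1 at the left and replicate 2 at the right of each position; bars are exact Poisson 95% intervals. Mirlet7g and Mirlet7i lie at or above 26336 CPM, Mirlet7b, Mirlet7d and Mir98 between 2934 and 4811 CPM, and the other 5 hairpins at or below 1228 CPM, with replicate 2 above replicate 1 in all 10.

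The hairpins with a shared 5p arm were also those with the lower levels. The 5 hairpins with a 5p arm found in no other hairpin ranged from 3137 to 41484 CPM in mean level and held 97.4% and 97.6% of the family's counts in replicates 1 and 2. The 5 with a shared 5p arm ranged from 147 to 1197 CPM and held 2.60% and 2.45%. The groups did not overlap.

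The same was seen with stretches of 20 nt that another annotated hairpin also holds. None of the 5 hairpins with their own 5p arm held such a stretch. At 18 nt this split by level did not hold, as Mirlet7g, Mirlet7i and Mirlet7b, the 3 highest hairpins, then held 2 shared stretches each. The share of stretches held in common was 4.69% in Mirlet7f-2, 7.79% in Mirlet7a-2, 8% in Mirlet7c-1, 14.5% in Mirlet7c-2 and 16% in Mirlet7a-1. Over all detected genes the levels did not follow this split: the 78 that share a stretch had a median of 225 CPM and the 278 that share none a median of 145 CPM. These medians hold only genes with at least 10 counts in both libraries. A hairpin left below that level by loss of shared reads is not in them, and whether shared sequence lowers counts was not tested. How many of the set-aside reads came from let-7a, let-7c and let-7f was not tested, because those reads are not divided by gene. The levels of these 5 hairpins are therefore levels of the counted reads, and the order of hairpins across this divide is uncertain.

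**Figure D2:**
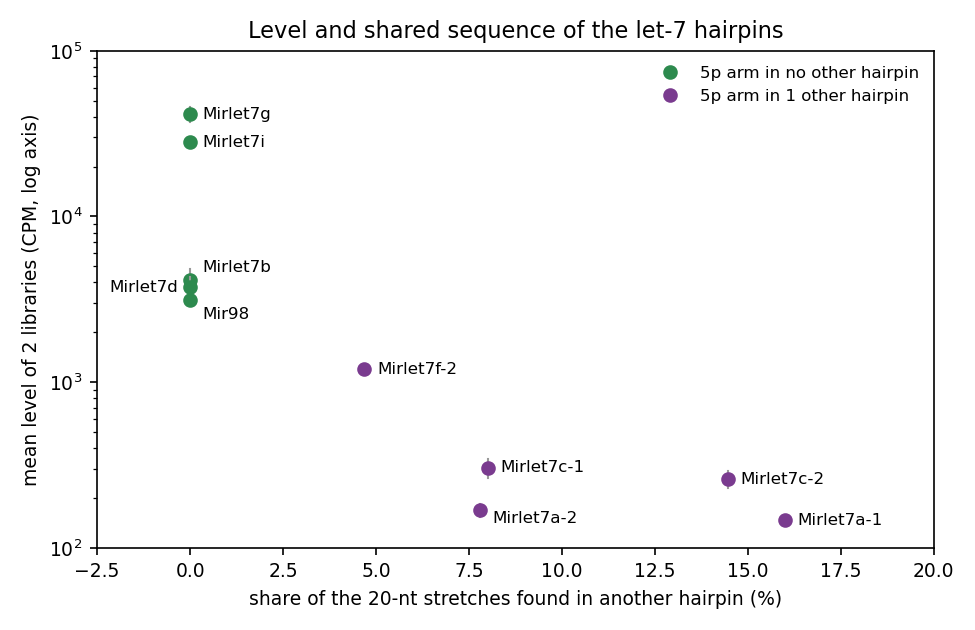
Mean level of each let-7 hairpin in CPM (log axis) against the share of its 20-nt stretches found in another hairpin, in percent; grey lines join the 2 libraries. The 5 hairpins at 0% all lie at or above 3137 CPM and the 5 hairpins from 4.69% to 16% all lie at or below 1197 CPM.

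The genomic loci allow hairpins of 1 neighbourhood to be set side by side. Positions are on GRCm38, the assembly that mm10 denotes. On chromosome 13, on the minus strand, Mirlet7d (ENSMUSG00000065453.1, chr13:48536012-48536114) and Mirlet7a-1 (ENSMUSG00000065421.2, chr13:48538179-48538272) lie within 10 kb of each other in exons of the long non-coding RNA gene 6720427I07Rik. Mirlet7d was 22.4-fold above Mirlet7a-1 in replicate 1 and 28.3-fold in replicate 2. Mirlet7f-1, which is not among the 10 hairpins, lies between them. Reads over Mirlet7f-1, described under the flagged results, came to 46.2 and 56.8 CPM in replicates 1 and 2, below Mirlet7a-1. On chromosome 15, on the plus strand, Mirlet7b (ENSMUSG00000065564.1, chr15:85707319-85707403) and Mirlet7c-2 (ENSMUSG00000065608.1, chr15:85706603-85706697) lie 622 bp apart in exons of the non-coding transcript Lncppara. There Mirlet7b was 15.2-fold and 16.6-fold above Mirlet7c-2.

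On chromosome X, on the plus strand, Mir98 (ENSMUSG00000065536.2, chrX:151913214-151913321) and Mirlet7f-2 (ENSMUSG00000065602.1, chrX:151912346-151912428) lie 786 bp apart in an intron of Huwe1, which encodes a ubiquitin ligase. Mir98 was above Mirlet7f-2 by 2.52-fold and 2.72-fold in replicates 1 and 2, the smallest gap of the 3 loci. In each of the 3 pairs the hairpin with its own 5p arm was the higher one in both libraries, while the lower one shares its 5p arm with a hairpin elsewhere.

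At 2 further loci 1 of the 10 let-7 hairpins lies with hairpins of the mir-99/100 and mir-125 families, an arrangement kept across animals. Mir100 and Mir99a lie within 10 kb of the let-7 hairpin, and Mir125b-1 and Mir125b-2 lie further along the same host genes. On chromosome 9, Mirlet7a-2 (ENSMUSG00000092770.1, chr9:41536716-41536811, plus strand, in an intron of 3110039I08Rik) had 153 and 183 CPM in replicates 1 and 2, while Mir100 had 54801 and 51229 CPM and Mir125b-1 had 1665 and 1534 CPM. On chromosome 16, Mirlet7c-1 (ENSMUSG00000065557.2, chr16:77599657-77599750, plus strand, in an intron of Mir99ahg) had 265 and 344 CPM, while Mir99a had 188722 and 161545 CPM and Mir125b-2 had 1861 and 1776 CPM. At these 2 loci the let-7 hairpin was the lowest in both libraries, and it is one whose 5p arm is shared. Arm sharing is not reported here for the mir-99/100 and mir-125 hairpins, so their levels too are levels of the counted reads alone. Mirlet7e, which is not among the 10 hairpins, lies between Mir99b and Mir125a on chromosome 17. Reads over Mirlet7e, described under the flagged results, came to 4165 and 4803 CPM in replicates 1 and 2. They were above Mir125a, at 3605 and 3738 CPM, and below Mir99b, at 25225 and 21060 CPM.

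**Figure D3:**
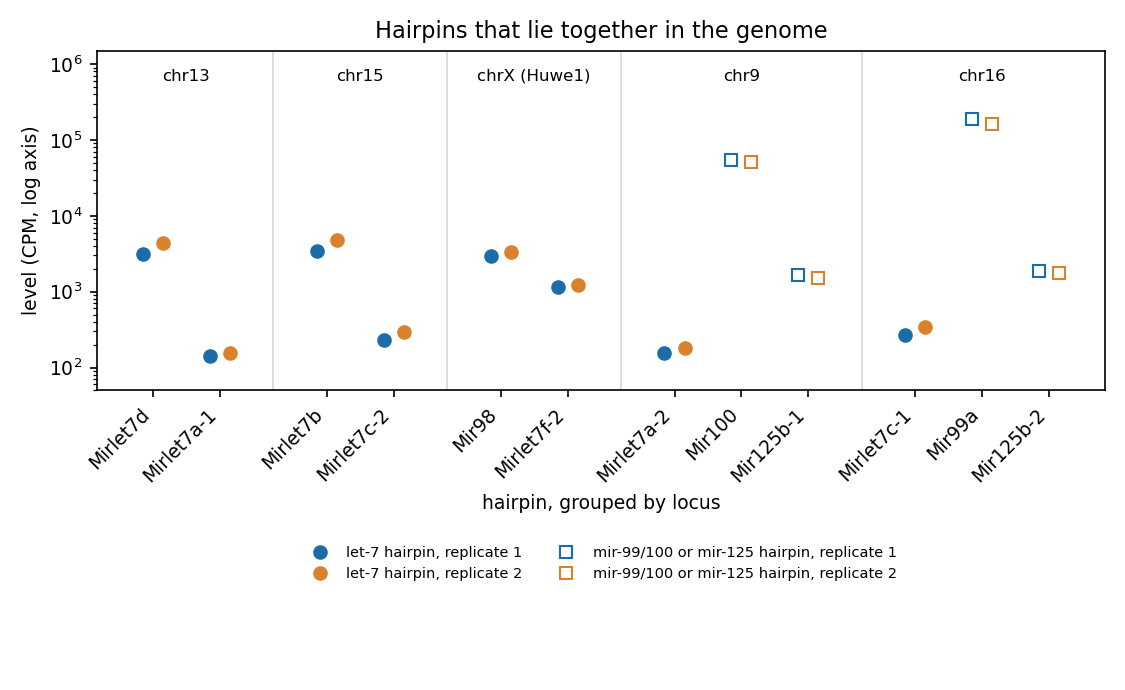
Level in CPM (log axis) of hairpins that lie in the same locus, with replicate 1 at the left and replicate 2 at the right; filled circles are let-7 hairpins and open squares are hairpins of the mir-99/100 and mir-125 families. Mirlet7a-1, Mirlet7c-2, Mirlet7f-2, Mirlet7a-2 and Mirlet7c-1 are each the lowest hairpin shown at their locus.

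The highest members stand alone in the genome. Mirlet7g (ENSMUSG00000065440.1, chr9:106178840-106178927, plus strand) lies in an intron of Wdr82, which encodes a subunit of histone methyltransferase complexes. Mirlet7i (ENSMUSG00000065406.2, chr10:122985640-122985724, minus strand) lies in an exon of the transcribed pseudogene D630033A02Rik. Neither had another annotated microRNA within 10 kb.

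The loops between the arms of 9 hairpins are shown because LIN28 is known to bind the motif GGAG there. Each is the precursor stretch from the end of the 5p arm to the start of the 3p arm, 5′ to 3′, from RefSeq, with GGAG in capitals where present.
Mirlet7g loop: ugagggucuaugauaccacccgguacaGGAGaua
Mirlet7i loop: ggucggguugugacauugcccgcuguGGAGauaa
Mirlet7b loop: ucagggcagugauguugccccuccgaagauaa
Mirlet7d loop: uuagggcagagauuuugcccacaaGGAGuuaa
Mirlet7f-2 loop: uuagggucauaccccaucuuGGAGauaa
Mirlet7c-1 loop: uagaguuacacccugGGAGuuaa
Mirlet7c-2 loop: uugggcucugccccgcucugcgguaa
Mirlet7a-2 loop: uagaguuacaucaagGGAGauaa
Mirlet7a-1 loop: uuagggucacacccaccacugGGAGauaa

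GGAG was present in 7 of these 9 loops, searched on the RNA strand, and these letters were not in the loops of Mirlet7b and Mirlet7c-2. Of 643 RefSeq mouse hairpins with both arms annotated, 52 held GGAG in the loop, or 8.09%. The median of the 9 let-7 loops was 29 nt, against 16 nt over those hairpins, so the windows were not of equal length. The 7 hairpins with the motif ranged from 147 to 41484 CPM in mean level while Mirlet7c-2 and Mirlet7b, without it, stood at 260 and 4149 CPM. The levels with the motif spanned those without it.

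All 10 hairpins were lower in replicate 1 than in replicate 2. The log2 ratio, replicate 1 over replicate 2 with library sizes scaled by edgeR's trimmed mean of M-values (TMM), ran from -0.45 for Mirlet7d and Mirlet7b to -0.06 for Mirlet7f-2, with a median of -0.26. Over all detected genes the median was -0.01, and 50.6% of genes were lower in replicate 1. Between these ends lay Mirlet7c-1 at -0.36, Mirlet7c-2 at -0.32, Mirlet7g at -0.27, Mirlet7a-2 at -0.24, Mir98 at -0.17, Mirlet7i at -0.16 and Mirlet7a-1 at -0.12.

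The counts of each detected gene were compared by an exact binomial test, two-sided, and adjusted after Benjamini and Hochberg. By this test 8 of the 10 hairpins differed between the libraries, all lower in replicate 1. The test called 45.2% of detected genes in either direction and 22.5% as lower in replicate 1. Mirlet7f-2 (exact binomial adjusted p = 0.0894) and Mirlet7a-1 (exact binomial adjusted p = 0.314) did not pass, and Mirlet7a-2 did at an adjusted p of 0.0109 in the same exact test. The test compares these libraries, not conditions, and counts sampling error alone. No let-7 hairpin lay beyond 1.5-fold between the libraries, a distance that 9.83% of detected genes passed, and the common biological coefficient of variation from edgeR over the detected genes was 0.141.

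A marker list of another cell type was also lower in replicate 1. The 6 microRNAs of choroid plexus and multiciliated cells, all detected and none at 0, summed to 4989 and 9685 CPM in replicates 1 and 2, with all 6 lower in replicate 1. The Hox cluster list, summed above, had a log2 ratio of -0.27, with its 3 detected members lower in replicate 1. The epithelial list summed to 233 and 123 CPM in replicates 1 and 2, with no marker at 0 and all 5 higher in replicate 1. The muscle list summed to 149 and 85.2 CPM. In it 2 of 5 measured markers had no counts, Mir208a and Mir208b were higher in replicate 1, and Mir206 was lower, at 32.6 and 64.1 CPM. As in the tissue check, reads that map to several places are missing from these marker rows. The blood list summed to 456 and 416 CPM, and its members did not move together. Mir451a had 152 and 57.5 CPM while the other 3 detected members were lower in replicate 1. Their log2 ratios were -0.03 for Mir144, -0.10 for Mir223 and -0.37 for Mir155. The endothelial list had 20540 and 18917 CPM and the mural list 6772 and 6370 CPM in replicates 1 and 2. In bulk tissue, fewer cells of a type and less microRNA per cell cannot be told apart. The part of tissue makeup in the let-7 difference was not tested.

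**Figure D4:**
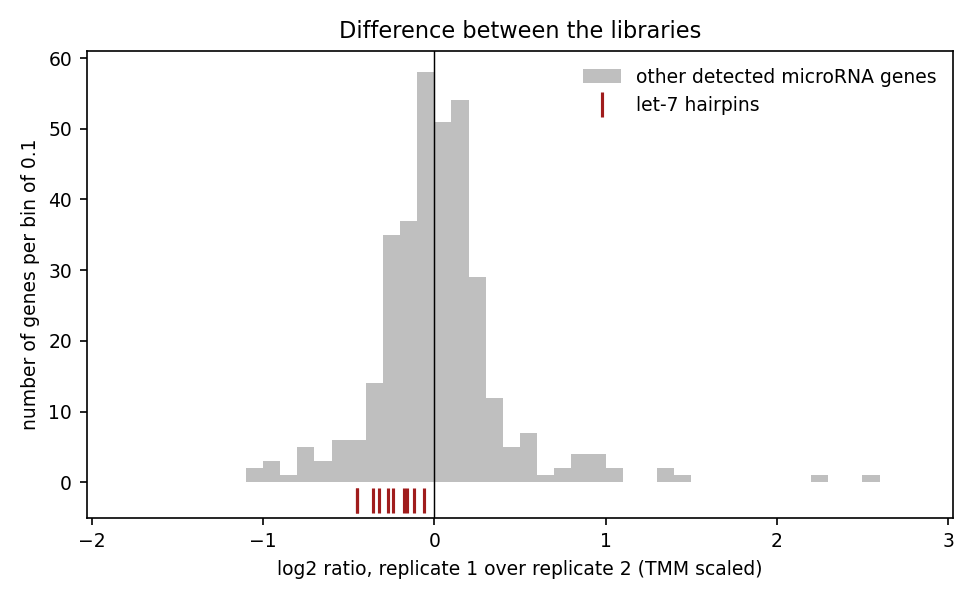
Histogram of the log2 ratio, replicate 1 over replicate 2 with TMM scaling, for the detected genes outside the family (grey), with red ticks under it for the 10 let-7 hairpins. All 10 ticks lie left of 0, between -0.45 and -0.06, within the range of the histogram.

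Reads on the strand opposite to the hairpin were rare. The 10 hairpins had 8 such reads in replicate 1 and 10 in replicate 2. Of these, 6 and 7 were at Mirlet7b and 2 and 2 at Mirlet7i. The last was 1 read at Mir98 in replicate 2, and the other 7 hairpins had 0. Taking 3 counts as the one-sided limit that a count of 0 allows, this is up to 0.998 CPM in replicate 1 and 0.665 CPM in replicate 2.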

How the data were processed

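Short RNA of embryonic day 13.5 mouse hindbrain was measured in 2 libraries of 1 group. The authors deposited raw read counts per microRNA gene, aligned to mm10 and counted on GENCODE M4, per the README files. Which aligner, mismatch setting, counter and trimming were used is not given in the sources used here. The strand column with 98.1% of gene counts was used, and the summary rows stayed out of library sizes. No molecular identifiers are named, and the intervals and floors hold for counting error alone.

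Names, positions and hosts came from GENCODE M21, which matched 1894 of 1973 identifiers. Mature and hairpin sequences came from RefSeq (GRCm38.p6) and matched all 10 hairpins; 1 loop is not reported here. Shared stretches of 20 nt were sought, sense strand only, in the 2202 microRNA hairpins of GENCODE M21. The counts were scaled with edgeR 4.0.16 (TMM, common dispersion) and, as an alternative, with DESeq2 1.42.0 size factors. With 1 group, edgeR's quasi-likelihood test could not be run, and exact binomial tests of the library counts (SciPy 1.17.1, threshold 0.05) took its place. The test was checked on simulated counts that held counting error alone, so the check does not cover further spread between libraries. Named genes are the 10 hairpins, microRNAs within 10 kb of them, the mir-99/100 and mir-125 families, the neighbours of the highest hairpin in level, and other microRNAs with the let-7 seed. The members, lists and tests were chosen with earlier results of these data known.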

Additional observations from a re-analysis of the deposited data

Results flagged for a closer look

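The column of opposite-strand reads was used in no level above. In it, Gm25927, a microRNA gene annotated on the minus strand of chromosome 17 (chr17:17830343-17830459), had 12522 reads in replicate 1 and 21655 in replicate 2, with 0 reads on its own strand in both. It overlaps Mirlet7e, which is annotated on the plus strand at chr17:17830352-17830444 in GENCODE M21 and is not analysed here as a hairpin of its own. Scaled like the hairpins, these reads came to 4165 and 4803 CPM, beside 3488 and 4811 CPM for Mirlet7b. The 5p arm of let-7e, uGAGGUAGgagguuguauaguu with the seed in capitals, has U9G relative to let-7a-5p and occurred in no other annotated hairpin.

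Gm24111, annotated on the plus strand of chromosome 13 (chr13:48537825-48537921) across Mirlet7f-1, had 139 and 256 reads on its opposite strand in replicates 1 and 2, or 46.2 and 56.8 CPM, and 1 read on its own strand in each. The 5p arm of Mirlet7f-1 is the one that Mirlet7f-2 also holds. Both genes were singled out after their values were seen, because these reads exceed the 3 that a count of 0 allows. For the same reason Mirlet7b is listed, with 6 and 7 opposite-strand reads in replicates 1 and 2, or 0.0572% and 0.0323% of its reads.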

How the results depend on the processing

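With 1 group of 2 libraries no contrast between conditions can be made, and n = 2 limits every SD. No paired analysis was possible because there is only 1 group. With all reads of a library as the denominator, multimapping and unmapped reads included, the let-7 sum was 39779 and the median hairpin 1045 per 1000000 reads. With TMM sizes, DESeq2 size factors or the either-strand column, the sum lay between 81009 and 82537 CPM and each of the 10 hairpins moved by less than 1 SD. Without replicate 1 or replicate 2 the sum was 89900 or 75239 CPM. It was 80493 CPM from hairpins that share no stretch of 20 nt, and 87105 CPM with the reads over the Mirlet7e and Mirlet7f-1 loci, an alternative chosen after seeing the data. With stretches of 18 nt, 8 hairpins, among them Mirlet7g, Mirlet7i and Mirlet7b, shared sequence with another, against 5 with 20 nt or 22 nt. All 10 hairpins stayed lower in replicate 1 with column totals, DESeq2 size factors, the either-strand column, no filter and a minimum of 100 counts. Under the exact test of edgeR, with the biological coefficient of variation set to 0.1, a ranking only since each side is 1 library, 0 hairpins passed after adjustment, against 13 of all 356 detected genes, and 2 passed at an unadjusted p under 0.05, against 28 of the 356.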

Other observations

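The mir-99/100 and mir-125 families, which share loci with let-7 hairpins, were mostly higher in replicate 1, the opposite of the let-7 hairpins. By the exact binomial test 5 of these 6 genes differed between the libraries, all higher in replicate 1, and Mir125a did not pass (exact binomial adjusted p = 0.0600). The same test called 45.2% of all detected genes in either direction and 22.5% as lower in replicate 1, and it counts sampling error alone. The rest of the called genes were higher in replicate 1. The log2 ratio, replicate 1 over replicate 2, was 0.27 for Mir99b, 0.24 for Mir99a and 0.11 for Mir100. It was 0.13 for Mir125b-1, 0.08 for Mir125b-2 and -0.04 for Mir125a. The let-7 sum had a ratio of -0.24 and the mir-99/100 sum one of 0.21. These are values of single libraries, and the difference between the families was not tested.

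Beyond the family, 2 mouse microRNAs in RefSeq carry the seed GAGGUAG and have a row in the counts. Mir7k, the hairpin of let-7k, had 1 count in each library, and Mir1961 had 0 counts in both, which by the limit of 3 counts allows up to 0.998 CPM in replicate 1 and 0.665 CPM in replicate 2.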
